A study of Mus musculus with 6 samples.

Results

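The strong SP1 sites at gene ends were 675 of the 9001 SP1 sites in the authors' deposited table (7.50%). Sites were chosen by position and by mean signal: the midpoint had to be no farther than 1000 bp from the start or end of a RefSeq protein-coding gene, and the mean signal had to be 20 or more. Mean signal is the normalized read count averaged over the libraries of the authors' comparison. The 675 sites lay nearest to 598 genes, which were 25.7% of the 2326 protein-coding genes in the listed regions. They made up 45.6% of the 1481 listed gene-end sites and 62.0% of the 1088 listed sites with a mean signal of 20 or more. On chromosome 1 there were 349, on chromosome 10 there were 285, and 41 lay on the start of chromosome 11, where the table ends at position 20195189.

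The study profiled open chromatin by ATAC-seq in pluripotent mouse R1 embryonic stem cells (ESC) and in neural progenitor cells (NPC), also labelled R1, with 3 libraries of each. ATAC-seq cuts open chromatin with the Tn5 transposase and counts the fragments over each site. The labels name no treatment, genotype or time, and separate cultures are not mentioned, so p-values measure a spread between libraries that may be technical. The study concerned the apparent binding affinities of transcription factors, and the comparison asks how accessible SP1 sites are in each cell type. Since values per library were not analysed here, sites carry no SD, and library depth is unknown.

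SP1, a transcription factor with zinc fingers, recognises GC-rich DNA, classically the GC box, at the promoters of many broadly expressed genes. Such promoters often lie in CpG islands, are free of nucleosomes around the transcription start, and serve genes needed by most cells. Embryonic stem cells keep pluripotency genes such as Lin28b open, and neural progenitors open genes such as Fabp7. The defining genes Pou5f1, Nanog, Sox2, Nes and Pax6 lie on other chromosomes and were not analysed here.

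Most of the sites sat close to gene starts. The RefSeq promoter table gave the strand of the nearest gene for 575 of the 675 sites, and 563 of these (97.9%) lay at the 5′ end, against 12 at the 3′ end. These are ends of the whole gene model, and 11 of the 563 lay farther than 1000 bp from any start in the promoter table. The median distance to the nearest gene end was 85 bp, with quartiles of 31 and 264.5 bp, and 494 sites (73.2%) lay within 250 bp. Of the 806 gene-end sites with a mean signal below 20, 44.0% lay within 250 bp, with a median distance of 310.5 bp. The midpoint was inside the nearest gene at 275 of the 675 sites. A further gene end lay within 1000 bp at 99 sites, 98 of them shared by 2 genes and 1 shared by 3 genes, such as the site between Odr4 and the nuclear pore gene Tpr. Exon, intron and UTR positions were not analysed here.

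The sequences below are 6 promoters at sites that span the range of outcomes, from 250 bases before to 50 bases after the start of the gene. Opn3 and Hjurp stand for sites of highest signal, Fabp7 and Ecrg4 for the largest rises, and F11r and Slco4c1 for the largest falls. They come from RefSeq on assembly GRCm38.p6, which is mm10, and read 5′ to 3′ on the strand of the gene. Capitals mark the GC box, searched as GGGCGG and its reverse complement CCGCCC. The Opn3 promoter is chr1:175692583-175692882 on the minus strand, and Hjurp is chr1:88277530-88277829 on the minus strand. Fabp7 is chr10:57784673-57784972 on the plus strand, and Ecrg4 is chr1:43730352-43730651 on the plus strand. F11r is chr1:171437311-171437610 on the plus strand, and Slco4c1 is chr1:96872122-96872421 on the minus strand.
Opn3: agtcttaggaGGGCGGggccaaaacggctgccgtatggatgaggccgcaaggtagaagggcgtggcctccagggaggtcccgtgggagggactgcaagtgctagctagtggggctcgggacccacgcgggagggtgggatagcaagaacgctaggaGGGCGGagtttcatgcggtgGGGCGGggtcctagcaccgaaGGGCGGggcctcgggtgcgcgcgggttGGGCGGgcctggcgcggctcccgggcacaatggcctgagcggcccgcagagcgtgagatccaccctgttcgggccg
Hjurp: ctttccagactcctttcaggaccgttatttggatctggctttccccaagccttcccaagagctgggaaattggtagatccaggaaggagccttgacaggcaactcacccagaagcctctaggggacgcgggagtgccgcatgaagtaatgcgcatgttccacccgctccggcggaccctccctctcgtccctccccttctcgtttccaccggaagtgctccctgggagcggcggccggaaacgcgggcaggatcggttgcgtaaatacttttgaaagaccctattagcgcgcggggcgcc
Fabp7: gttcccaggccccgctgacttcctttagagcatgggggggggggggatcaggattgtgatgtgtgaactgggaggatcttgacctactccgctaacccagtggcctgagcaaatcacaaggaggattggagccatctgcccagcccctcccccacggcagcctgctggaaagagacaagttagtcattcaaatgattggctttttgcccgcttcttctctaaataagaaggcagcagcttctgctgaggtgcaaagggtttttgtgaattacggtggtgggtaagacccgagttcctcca
Ecrg4: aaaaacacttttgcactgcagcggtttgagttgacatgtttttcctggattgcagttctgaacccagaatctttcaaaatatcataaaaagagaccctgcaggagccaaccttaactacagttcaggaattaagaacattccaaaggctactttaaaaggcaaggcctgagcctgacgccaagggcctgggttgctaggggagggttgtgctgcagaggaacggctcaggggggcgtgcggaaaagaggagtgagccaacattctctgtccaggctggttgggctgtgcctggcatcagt
F11r: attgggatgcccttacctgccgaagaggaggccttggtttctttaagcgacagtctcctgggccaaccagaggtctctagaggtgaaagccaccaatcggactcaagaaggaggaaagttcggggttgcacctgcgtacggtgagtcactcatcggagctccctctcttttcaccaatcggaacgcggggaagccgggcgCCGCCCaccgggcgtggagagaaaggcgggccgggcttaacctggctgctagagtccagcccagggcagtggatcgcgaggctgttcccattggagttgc
Slco4c1: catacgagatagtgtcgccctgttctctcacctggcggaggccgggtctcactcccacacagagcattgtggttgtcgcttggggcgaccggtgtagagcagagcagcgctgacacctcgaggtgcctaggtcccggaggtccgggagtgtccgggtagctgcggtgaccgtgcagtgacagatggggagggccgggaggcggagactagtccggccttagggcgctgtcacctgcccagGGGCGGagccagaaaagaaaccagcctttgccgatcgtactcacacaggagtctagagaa

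The Opn3 window held 5 GC boxes, F11r and Slco4c1 held 1 each, and the windows of Hjurp, Fabp7 and Ecrg4 held 0. Base composition also differed among them. GC content was 70.0% at Opn3, 59.7% at Hjurp, 63.0% at Slco4c1 and 60.3% at F11r, against 54.0% at Fabp7 and 50% at Ecrg4. The ratio of observed to expected CpG, which is high in CpG islands, was 0.82 at Opn3, 0.28 at Fabp7 and 0.27 at Ecrg4. It was 0.55 at Gm973, another of the largest rises, whose sequence is not shown. These windows do not stand for rising sites in general, since the 44 promoters at rises of at least 2-fold had a median ratio of 0.87 and a median GC content of 65.3%. A match to these letters is a description of the window and shows no binding, and a window without one says only that the letters are not there.

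Promoters of the genes with strong gene-end sites were rich in GC boxes and CpG. A RefSeq promoter of the nearest gene within 1000 bp of the site was found for 480 of the 598 genes, and 453 of these promoters overlapped the site. A GC box on either strand was in 364 of the 480 (75.8%). The share was 56.5% for 345 genes with weaker gene-end sites only, 35.1% for 967 other genes of the listed regions and 35.7% for all 32851 promoters of the table. Median GC content was 63.3% in the strong set, 60.3% in the weaker set and 52.7% over all promoters. Median observed over expected CpG was 0.82, 0.69 and 0.38 in the same order. Each of the 480 promoters lay near a listed SP1 site, unlike all 32851 promoters, and SP1 recognises GC-rich DNA such as the GC box. The differences from the other genes and from all promoters thus cannot be told apart from how the sites were listed, and were not tested.

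Other motifs were searched by their letters on both strands, with overlaps between motifs allowed. CCAAT, the box bound by NF-Y, was in 44.8% of the 480 promoters, 29.3% of the weaker set and 37.4% of all promoters. CCGGAA, the core bound by ETS factors, was in 28.1%, 15.4% and 14.9%. TATAAA was in 5.21%, 9.28% and 13.6%. An exact match to the palindromic NRF1 consensus was in 2.29%, 2.32% and 0.971%. Within the strong set, the GC box was found in 66.7% of 153 promoters at sites with a mean signal of 20 to 30 and in 88.0% of 25 promoters at sites of 100 or more. Across the 480 promoters, which share base composition with their GC box number, the Spearman correlation of GC box number was 0.19 with mean signal and 0.05 with the log2 fold change. The GC box share was 77.8% at 167 rising sites, 81.5% at 27 falling sites and 73.9% at 261 kept sites.

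Most of the strong gene-end sites stayed close to their ESC accessibility in NPC. In the authors' deposited table the median log2 fold change of NPC over ESC was 0.31, with quartiles of 0.00 and 0.67, so that the median NPC level was 124% of the ESC level. Between -0.80 and 1.34 lay the middle of the distribution, from its 5% to its 95% point. A site was called kept when its log2 fold change with its 95% interval, from the authors' standard error, lay wholly between -1 and 1, that is within 2-fold. By this rule 361 of 675 sites (53.5%, 95% Wilson interval 49.7% to 57.2%) were kept, against 8.84% of all 9001 listed sites. Under this rule a site with a large standard error cannot be kept, whatever its change. The median error was 0.28 at these sites and 0.90 over all listed sites, so the kept shares are not on equal terms. A site rose or fell when the authors' adjusted p-value, from DESeq2, was below 0.05. Of the 675 sites 226 rose (33.5%, interval 30% to 37.1%), against 22.8% of all listed sites, and 46 fell (6.81%, interval 5.15% to 8.97%), against 32.6%. The other 403 were not called, while 55.4% of all listed sites were called in either direction. These intervals cover counting error over sites, and sites are not independent replicates. Mean signal of the same table chose the sites, so the shares are given as a description, with no test.

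Changes were mostly small. In the authors' deposited table, called rises had a median log2 fold change of 0.86 and called falls one of -1.09. Rises of at least 2-fold were called at 75 sites (11.1%), against 20.3% of all listed sites. Falls of at least 2-fold were called at 26 sites (3.85%), against 32.1%. Among the kept sites 19 were also called, with a change smaller than 2-fold, and 342 were not called. A further 61 sites were neither called nor shown to be kept.

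**Figure D1:**
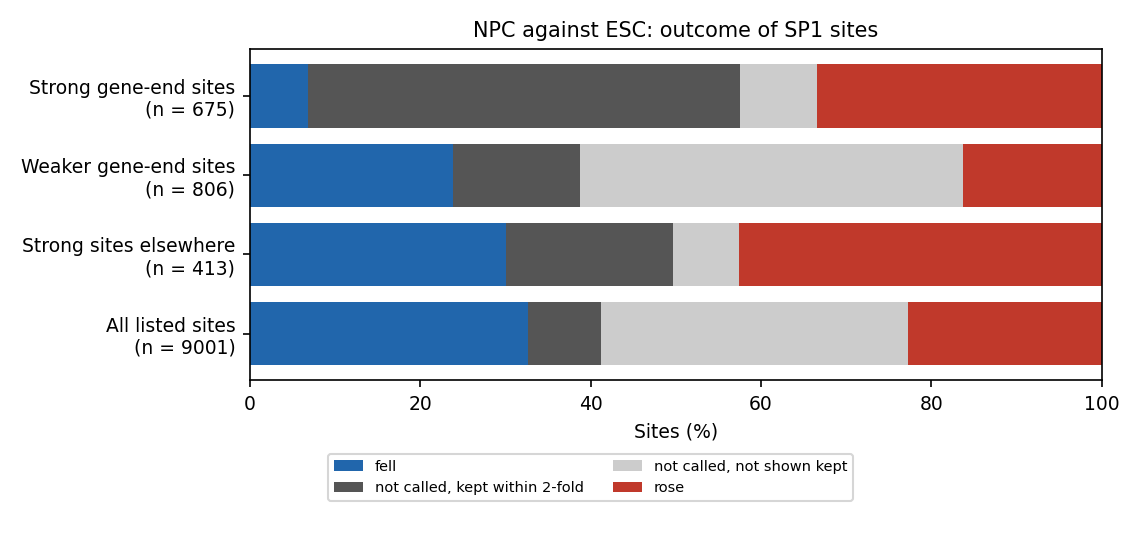
Share of SP1 sites (%) that fell, rose, were kept within 2-fold without a call, or were neither called nor shown to be kept, by set of sites, from the authors' deposited table. Rises took 33.5% and falls 6.81% of the 675 strong gene-end sites, and falls took 32.6% of all 9001 listed sites.

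The balance of rises and falls rests on where 0 is placed. The median log2 fold change over all listed sites was -0.29 and over the strong gene-end sites 0.31 in the authors' deposited table. Centred on the first, with p-values recomputed from each fold change and its error, 48.6% of the strong gene-end sites rose and 3.56% fell. Centred on their own median, 11.3% rose and 11.4% fell, and 62.1% were kept within 2-fold. Under the first centring 34.8% were kept. Statements on rises below hold for the fold changes as deposited unless a centred value stands beside them.

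Weaker sites at gene ends and strong sites elsewhere spread more widely. In the authors' deposited table, 131 of the 806 gene-end sites with a mean signal below 20 rose (16.3%), 192 fell (23.8%) and 120 were kept (14.9%), with a median log2 fold change of -0.02. The 413 strong sites elsewhere had a median of 0.32, close to that of the gene-end sites, but quartiles of -1.79 and 1.77. Of these, 176 rose (42.6%), 124 fell (30%) and 83 were kept (20.1%). The kept rule needs a small standard error, and the median error was 0.28 in the strong gene-end set, 0.37 in the strong set elsewhere and 0.52 in the weaker gene-end set. At a mean signal of 20 to 30, 25 of 249 gene-end sites fell (10%) against 90 of 257 sites elsewhere (35%).

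**Figure D2:**
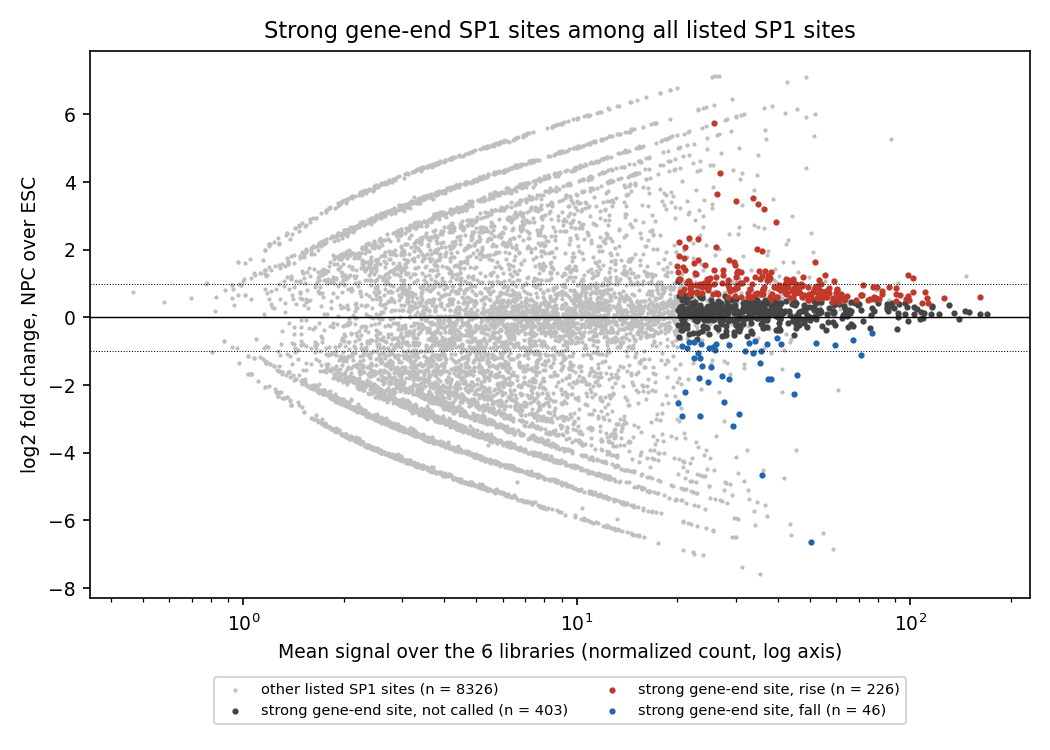
Log2 fold change of NPC over ESC against mean signal (normalized count, log axis) for all 9001 listed sites, with the 675 strong gene-end sites coloured by call and dotted lines at 2-fold. The strong gene-end sites lie mostly within 2-fold, around their median of 0.31, with few outlying rises and falls, down to Aspm at -6.64 and up to Vxn at 5.73.

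Among the strong gene-end sites, the share that fell was lower in the classes of higher signal. Mean signal also chose the sites, and near the bound a site can pass through 1 cell type alone, so the classes are compared as a description. From the authors' deposited table, falls took 10% of the sites with a mean signal of 20 to 30, 5.84% of those from 30 to 50 and 4.20% of those from 50 to 100. Of the 26 sites at 100 or more, 8 rose, 23 were kept (88.5%) and 0 fell by DESeq2, also at an unadjusted p-value below 0.05. The upper Wilson limit of that share of 0 is 12.9%. Rises took 26.9%, 33.1% and 46.2% in the lower 3 classes. Across the 675 sites the Spearman correlation between mean signal and log2 fold change was 0.06, as a description over sites that share libraries. On chromosome 11, 25 of 41 sites rose (61.0%), against 32.4% on chromosome 1 and 30.9% on chromosome 10.

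**Figure D3:**
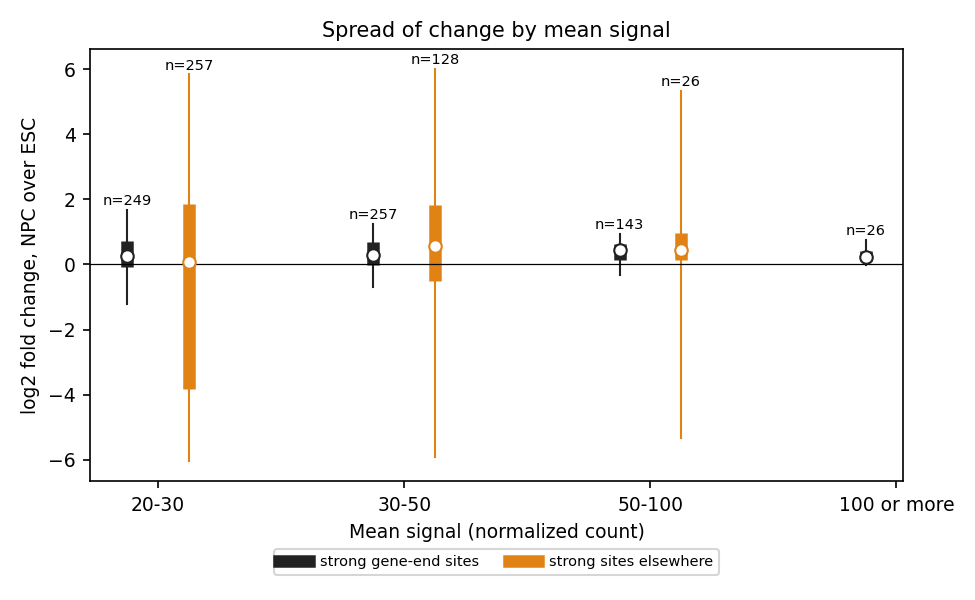
Log2 fold change of NPC over ESC by class of mean signal (normalized count) for strong gene-end sites and strong sites elsewhere, with the median as a circle, the quartiles as a thick bar and the 5% to 95% range as a thin line. The 2 sites elsewhere with a signal of 100 or more are not drawn. The 249 gene-end sites of 20 to 30 spread less than the 257 sites elsewhere of the same signal.

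The strongest sites belonged to genes of varied function and changed little. The highest mean signal in the authors' deposited table was 169.9, at the start of Opn3 (chr1:175692604-175693104), which encodes an opsin found outside the eye, with a log2 fold change of 0.10 ± 0.19 (the authors' standard error). Next stood Srgap2, a GTPase-activating protein of the Slit and Robo pathway, with a signal of 162 and 0.10 ± 0.16 in the authors' deposited table. For Hjurp, the chaperone that places the centromeric histone CENP-A, the authors' deposited table gives a signal of 161.7 and a rise of 0.60 ± 0.18 (adjusted p = 0.00136) that stayed within 2-fold. Hjurp and Suco, at 0.57 ± 0.20, were the called sites among the 10 of highest signal, and all 10 were kept within 2-fold in the authors' deposited table. The other 8 ranged from -0.05 at Rxylt1, an enzyme that adds a sugar to dystroglycan, to 0.36 at Btg1, an antiproliferative gene. The phosphatases Phlpp1 (0.17 ± 0.19) and Dusp10 (0.19 ± 0.18), Odr4 with Tpr (0.13 ± 0.19) and the mitochondrial ribosome gene Mrps14 (0.11 ± 0.19) lay between, in the authors' deposited table. Sites are named by the nearest protein-coding gene end, and a start of another gene in the promoter table can lie nearer. At the Srgap2 site the Fam72a start was 172 bp away, against 200 bp. At the Phlpp1 site the Gm20753 start was 56 bp away, against 401 bp.

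The 5 kept sites with the narrowest intervals were those of Srgap2, Hjurp, Dusp10, Dnpep and Actr3. Dnpep, an aspartyl aminopeptidase, had 0.12 ± 0.18 in the authors' deposited table. Actr3, a subunit of the Arp2/3 complex that nucleates branched actin, had -0.03 ± 0.18 there, an NPC level of 97.6% of the ESC level.

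The largest changes were at sites that passed the signal bound through 1 cell type. From the mean signal and fold change of the authors' deposited table, with 3 libraries in each group, the implied ESC level was below 20 at 73 of the 226 rises and the implied NPC level below 20 at 30 of the 46 falls. Among changes of at least 2-fold these were 50 of 75 rises and 21 of 26 falls. All of the 10 largest rises and 10 largest falls were of this kind, so such sites had to differ to be in the set, and their adjusted p-values are given as a description. At Vxn the implied levels were 0.95 in ESC and 50.5 in NPC, and at Aspm 99.9 in ESC and 1.004 in NPC.

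The 10 largest rises were at genes of varied function. Vxn, which encodes vexin, a promoter of neurogenesis, had a log2 fold change of 5.73 ± 0.99 (adjusted p = 4.63e-08) at chr1:9627075-9627575 in the authors' deposited table. Fabp7, which encodes a lipid-binding protein of radial glia, rose by 3.54 ± 0.42 (adjusted p = 2.28e-14) at chr10:57784588-57785088 in the authors' deposited table, an 11.6-fold difference. Cd24a, a surface glycoprotein of neural progenitors among other cells, rose by 2.34 ± 0.41, per the authors' deposited table. These 3 sites had mean signals of 25.8, 33.9 and 21.6, below the median of the set, 34.9.

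The other 7 of the 10 largest rises in the authors' deposited table were at Aox1, Arhgap18, Edar, Gm973, Ecrg4, Dnajb12 and Nab2. Aox1, an aldehyde oxidase, reached 4.26 ± 0.56, and Arhgap18, a GTPase-activating protein, reached 3.63 ± 0.49 in the authors' deposited table. Gm973 had 3.34 ± 0.40, and Ecrg4, a gene for a secreted peptide precursor, had 3.21 ± 0.38 in the authors' deposited table. Nab2, a corepressor of EGR factors, had 2.33 ± 0.41, per the authors' deposited table. A start of 1700012D01Rik lay nearer to that site, at 86 bp against 334 bp. The sites of Edar, the ectodysplasin receptor (3.43 ± 0.43), and Dnajb12, a chaperone of the endoplasmic reticulum (2.82 ± 0.34), lay at the 3′ ends of these genes, 351 and 512 bp from the end.

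The largest fall lay beyond the 3′ end of a gene, and the next ones at known genes of adhesion, matrix and RNA control. At chr1:139494608-139495108, 770 bp beyond the 3′ end of the spindle gene Aspm, the authors' deposited table gives -6.64 ± 0.98 (adjusted p = 1.70e-10) with a mean signal of 50.4. No RefSeq start in the promoter table lay within 1000 bp of that site. F11r, which encodes the tight junction protein JAM-A, had -4.66 ± 0.56 (adjusted p = 1.33e-14) at its start, per the authors' deposited table. Sulf1, a heparan sulfate sulfatase, fell by 3.20 ± 0.42, and Lin28b, an RNA-binding protein that blocks maturation of let-7, fell by 2.91 ± 0.47, in the authors' deposited table. The F11r site lay 92 bp from a RefSeq start. The Lin28b site lay 218 bp from the 5′ end of the gene model, but 16331 bp from the Lin28b start in the promoter table. The strand of Sulf1 is not in that table.

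The remaining falls among the 10 largest joined transport, detoxification and RNA genes. Slco4c1, an organic anion transporter, fell by 2.90 ± 0.45 and Kcnt2, a sodium-activated potassium channel, by 2.26 ± 0.30 in the authors' deposited table. Gstt2, a glutathione transferase, fell by 2.86 ± 0.38, per the authors' deposited table. The site shared by Ikzf4, a zinc-finger factor, and Suox, sulfite oxidase, fell by 2.52 ± 0.45, and the start of C2cd4c by 1.91 ± 0.38, in the authors' deposited table. Pym1, a factor that recycles the exon junction complex, fell by 2.51 ± 0.39 at 1 of its 2 strong sites, in the authors' deposited table.

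**Figure D4:**
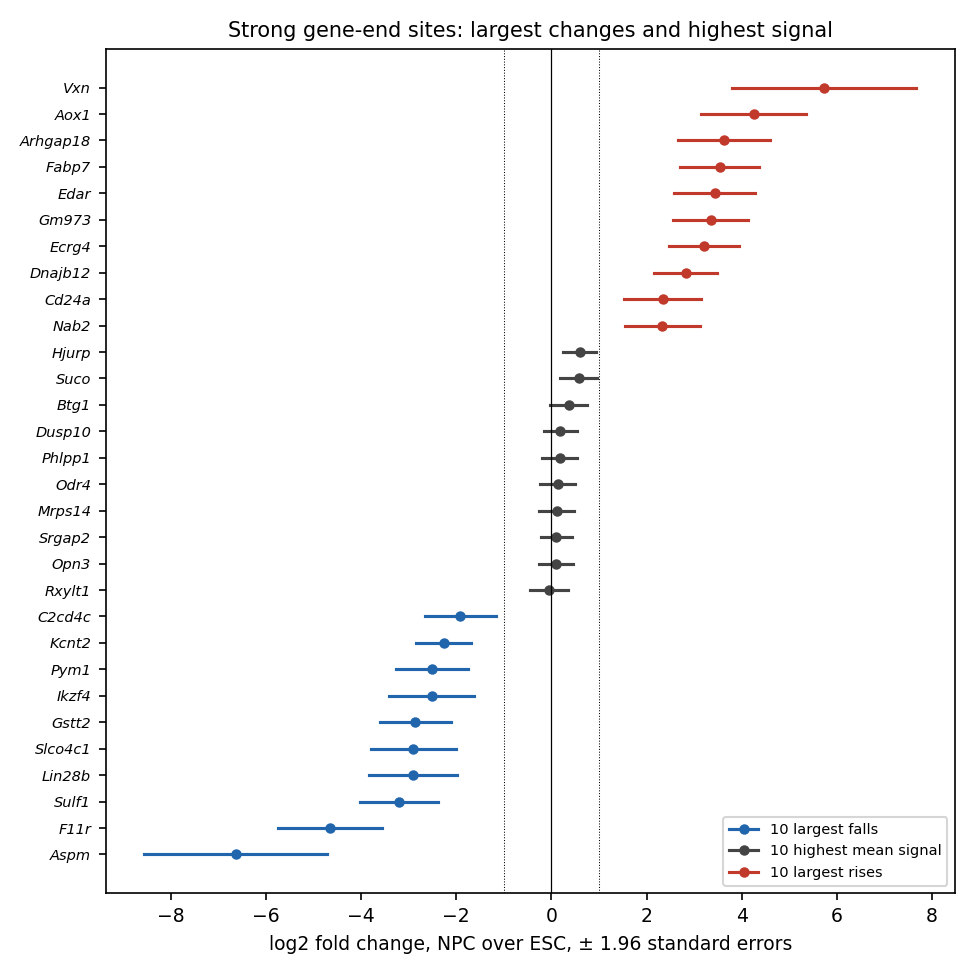
Log2 fold change of NPC over ESC with its 95% interval, from the authors' deposited table, for the 10 largest rises, the 10 sites of highest mean signal and the 10 largest falls, with dotted lines at 2-fold. The 10 sites of highest signal lie within 2-fold, between -0.05 and 0.60.

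Genes of the basic cell machinery held many of the sites, and most of these were kept. The gene lists are patterns of symbols, and 321 sites at 282 genes fell into at least 1 of the 22 lists. The counts of each list are to be read beside those of all 675 sites, of which 33.5% rose, 6.81% fell and 53.5% were kept. No list was tested against these shares. In the RNA splicing and processing list, 19 of its 51 genes in the listed regions held 25 sites. Per the authors' deposited table, 7 of the 25 rose, 0 fell by DESeq2 (0 also at an unadjusted p-value below 0.05) and 18 were kept, with a median of 0.24, or -0.07 when centred on the median of the strong gene-end sites. Ncl, the nucleolar protein nucleolin, had 0.08 ± 0.21, and the site shared by the tRNA methyltransferase gene Trmt1l and by Swt1 had 0.25 ± 0.18, in the authors' deposited table. Cnot9, of the CCR4-NOT deadenylase complex, had -0.13 ± 0.22 there.

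Mitochondrial genes gave 19 sites, of which 6 rose, 0 fell (0 also at an unadjusted p-value below 0.05) and 13 were kept in the authors' deposited table by DESeq2. Their median was 0.19, or -0.12 centred, and the 6 rises were 31.6% of these sites, beside 33.5% of all 675 sites. Atp5b, a subunit of ATP synthase, had 0.41 ± 0.21 and was not called, and Tfb2m, a mitochondrial transcription factor whose site is shared with Cnst, had a rise of 1.06 ± 0.24, per the authors' deposited table. Of 10 sites at translation factors and tRNA synthetases, 1 rose, at the mitochondrial methionyl-tRNA synthetase gene Mars2 (0.59 ± 0.25), and 8 were kept in the authors' deposited table. Their median was 0.20, or -0.11 centred.

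Ribosomal protein genes stood higher. All 4 of their sites rose in the authors' deposited table, at Rpl7 (1.14 ± 0.29 and 0.96 ± 0.37 at its 2 sites), Rpl31 (0.87 ± 0.33) and Rps15 (0.92 ± 0.36), with a median of 0.94. Centred on the median of the strong gene-end sites, their median was 0.63 and 1 of the 4 rose. The 2 Rpl7 sites overlap each other. The implied ESC level was below 20 at Rps15 and, at 15.5, at the Rpl7 site with the smaller change. These sites passed the signal bound through NPC, so they had to rise to be in the set.

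Cell cycle, replication and repair genes gave 35 sites, of which 7 rose, 2 fell and 25 were kept in the authors' deposited table. Their median was 0.21, or -0.10 centred. That median is the value of the kinesin gene Kif5a, which the symbol patterns also took in and whose site is shared with Dctn2. Of the 2 falls, 1 was the site beyond the 3′ end of Aspm (-6.64 ± 0.98), with no RefSeq start within 1000 bp. Cenpf, a kinetochore protein, had 0.14 ± 0.19, and Bard1, the partner of BRCA1, had -0.33 ± 0.21, in the authors' deposited table. Of 22 cytoskeleton and cilium sites 17 were kept, 4 rose and 1 fell in the authors' deposited table, with a median of 0.30, or -0.01 centred. Of the 17 kept, 3 were at Ttc41, and the strongest of these is shared with Hsp90b1, so they are not independent cytoskeleton genes.

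At proteostasis, traffic and signalling genes, kept sites and rises were the main outcomes, beside 33.5% rising over all 675 sites, and no difference from that share was tested. Per the authors' deposited table, 15 of 37 ubiquitin, proteasome and folding sites rose, 1 fell and 21 were kept, with a median of 0.41. Uchl5, a deubiquitinase of the proteasome, shares its site with Ro60 and had -0.01 ± 0.21, and Ube2n, an E2 enzyme, had 0.25 ± 0.20, in the authors' deposited table. At vesicle traffic genes 11 of 32 sites rose, 2 fell and 15 were kept in the authors' deposited table. Rab5b, a GTPase of early endosomes, shares its site with Pmel and had 0.10 ± 0.18 there. At kinases, phosphatases and GTPase regulators 17 of 40 sites rose, 2 fell and 21 were kept in the authors' deposited table. Dusp6, a phosphatase of ERK, rose by 0.57 ± 0.21 and stayed within 2-fold in the authors' deposited table. The medians of the last 2 lists were 0.42 and 0.38, and centred medians of the 3 lists were 0.11, 0.11 and 0.07.

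At transcription and chromatin genes the called changes, as deposited, were rises, except at 1 zinc finger site. Rises took 33.5% and falls 6.81% of all 675 sites, and no difference from these shares was tested. Centred on the median of the strong gene-end sites, polymerase machinery sites had 2 rises and 3 falls. Chromatin sites then had 1 rise and 0 falls, and zinc finger sites 3 rises and 2 falls. Of 19 sites in the list of polymerase machinery and general factors 8 rose, 0 fell by DESeq2 (0 also at an unadjusted p-value below 0.05) and 10 were kept in the authors' deposited table, with a median of 0.37, or 0.06 centred. The symbol patterns of that list also took in the zinc finger genes Zbtb18 (a rise of 0.76 ± 0.23) and Zbtb37 (0.29 ± 0.23 at its strongest site). Its counts are therefore not of polymerase machinery alone. Tcea1, an elongation factor, rose by 0.64 ± 0.22, and Eloc, elongin C, by 0.57 ± 0.22, per the authors' deposited table. Of 14 chromatin and DNA methylation sites, 4 rose, 0 fell (0 also at an unadjusted p-value below 0.05) and 4 were kept in the authors' deposited table, with a median of 0.50, or 0.19 centred. The histone chaperone gene Asf1a rose by 0.88 ± 0.23, Mbd3 of the NuRD complex by 0.65 ± 0.24 and the Polycomb ubiquitin ligase gene Rnf2 by 0.57 ± 0.23, in the authors' deposited table. At zinc finger genes 5 of 15 sites rose, 1 fell and 8 were kept in the authors' deposited table, with a median of 0.29, or -0.02 centred.

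Metabolic and transporter genes had the lowest medians among the lists with 5 or more sites. Of 24 metabolic enzyme sites 8 rose, 3 fell and 13 were kept in the authors' deposited table, with a median of 0.07, or -0.24 centred. Adss, of adenine nucleotide synthesis, rose by 0.74 ± 0.22 and Fh1, fumarate hydratase, by 0.54 ± 0.26, per the authors' deposited table. Of 20 solute carrier and ion pump sites 3 rose, 4 fell and 12 were kept in the authors' deposited table, with a median of 0.03, or -0.28 centred. Of the 4 falls, 2 were overlapping sites of the potassium channel gene Kcnt2 and 1 was at Slco4c1. Their implied NPC levels were 15.5, 7.49 and 5.54. These 3 sites passed the signal bound through ESC, so they had to fall to be in the set. Slc19a2, a thiamine transporter, had 0.20 ± 0.20, and Slc25a3, the mitochondrial phosphate carrier, had 0.19 ± 0.25, in the authors' deposited table.

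Stress and developmental signalling genes lay above the median of the set. Of 9 sites at stress, p53 and immediate early genes 6 rose, 0 fell by DESeq2 (0 also at an unadjusted p-value below 0.05) and 2 were kept in the authors' deposited table, with a median of 0.59. Ier5 rose by 0.59 ± 0.25, and Ppp1r15b, which encodes a regulatory subunit for dephosphorylation of eIF2α, by 0.56 ± 0.25, in the authors' deposited table. Of 6 developmental signalling sites 4 rose, 0 fell (0 also at an unadjusted p-value below 0.05) and 1 was kept in the authors' deposited table, with a median of 0.84. The Wnt receptor genes Fzd7 (0.86 ± 0.27) and Fzd5 (0.44 ± 0.22, adjusted p = 0.0501) and the ERK inhibitor gene Spred2 (0.82 ± 0.25) belong here in the authors' deposited table. Gli2, an effector of Hedgehog signalling, had 0.52 ± 0.27 (adjusted p = 0.0547) there. Centred medians of these lists were 0.28 and 0.53. Under that centring 2 of the 9 stress sites and 1 of the 6 developmental signalling sites rose. The share that rose over all 675 sites was 33.5% as deposited and 11.3% under that centring, and no difference from it was tested. Among the developmental signalling rises, Hes6 (1.53 ± 0.39) had an implied ESC level of 10.3. The largest stress change, 1.56 at Xbp1 with a mean signal of 29.8, also came from a site with an implied ESC level below 20. These 2 sites passed the signal bound through NPC, so they had to rise to be in the set.

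Genes that mark cell types differed in how many held a strong site. Of the list genes in the listed regions, 1 of 11 pluripotency, 4 of 10 neural progenitor, 5 of 12 neuron, 2 of 3 glial, 1 of 8 germline and 1 of 18 endoderm, mesoderm, neural crest and mesenchyme genes had one, beside 25.7% of all protein-coding genes there. The pluripotency site, at Lin28b, fell. Among the neural progenitor genes with a strong site, Fabp7 rose, as did Zbtb18 (0.76 ± 0.23), a transcriptional repressor active in the developing brain, in the authors' deposited table. Hmga2 had 0.59 ± 0.37 (adjusted p = 0.0955) without a call, per the authors' deposited table. Of 5 neuron sites 1 rose in the authors' deposited table, at Nav1 (1.71 ± 0.37), a neuron navigator that binds microtubules. The neuron sites of the synaptic vesicle gene Syn3 (-0.37 ± 0.25), the kinesin gene Kif5a (0.21 ± 0.26), the dendrite gene Map2 (0.19 ± 0.26) and Nav3 (-0.07 ± 0.30) were kept within 2-fold in the authors' deposited table. The Kif5a site is shared with Dctn2, a start of which lay 53 bp away, against 33 bp for the Kif5a end, so it may not stand for a neuron gene. Fn1, fibronectin, was the single site of the endoderm, mesoderm, neural crest and mesenchyme list and fell to 50% of its ESC level (adjusted p = 0.0013), per the authors' deposited table. Of the glial genes Gja1, connexin 43, rose by 0.74 ± 0.37 and Glul, glutamine synthetase, had -0.46 ± 0.34 without a call, in the authors' deposited table. Tex30, from the germline list, rose by 0.83 ± 0.26, per the authors' deposited table. Among these called sites, those of Fabp7, Nav1 and Gja1 passed the signal bound through NPC, and that of Lin28b through ESC. At Nav1 the implied ESC level was 10.8. Such sites had to differ to be in the set, so their directions are given as a description.

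**Figure D5:**
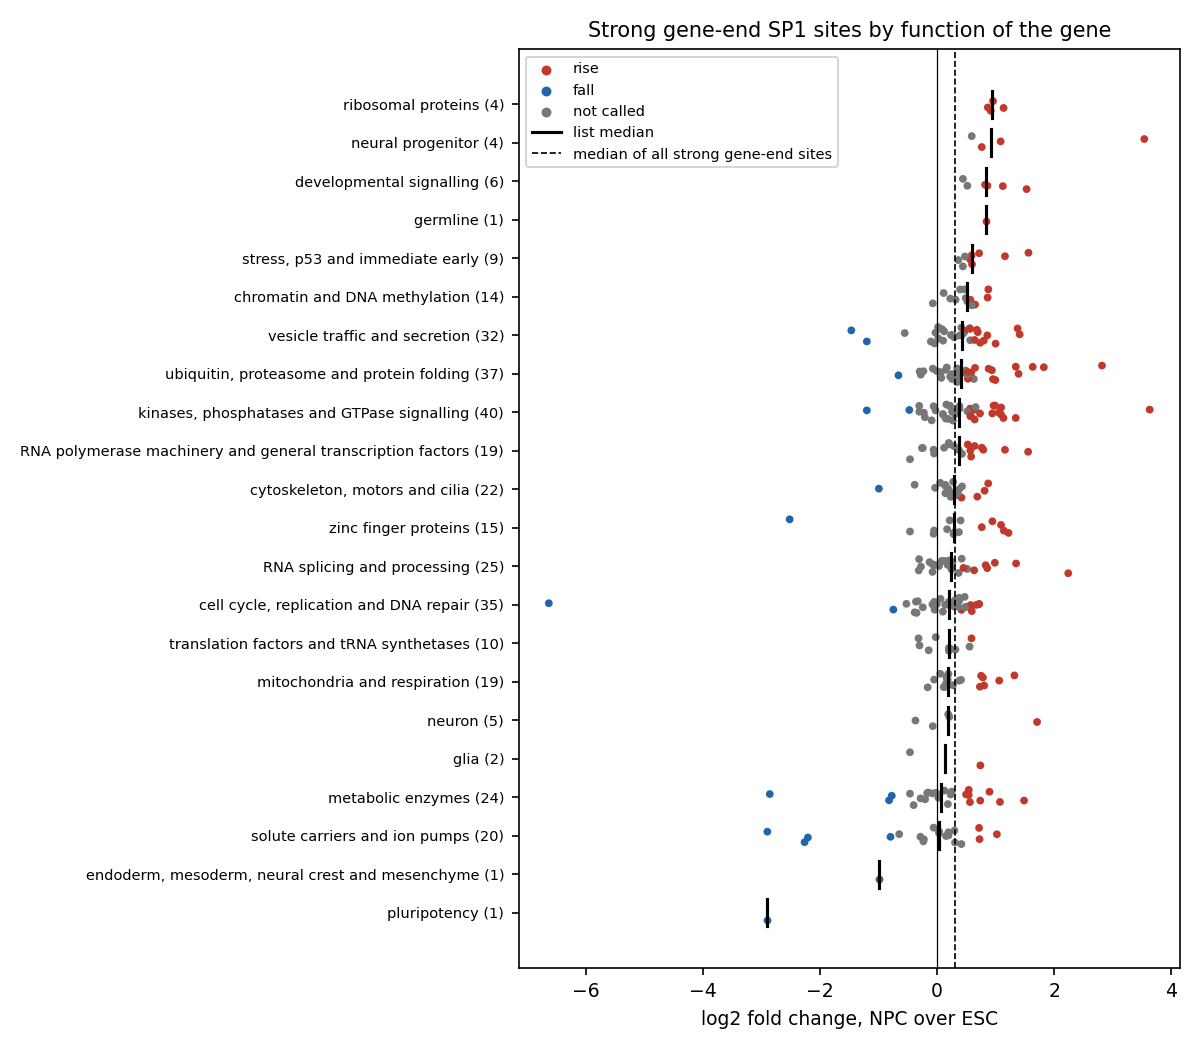
Log2 fold change of NPC over ESC of the strong gene-end sites by gene list (number of sites in brackets), from the authors' deposited table, with a bar at the median of each list and a dashed line at the median of all 675 sites, 0.31. List medians run from 0.94 for ribosomal proteins down to -2.91 for the 1 pluripotency site, and a gene can stand in more than 1 list.

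The 354 sites at 316 genes in no list behaved by count much like the whole set. Per the authors' deposited table, 116 of them rose, 28 fell and 184 were kept, with a median of 0.28.

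Several genes held more than 1 strong site. At 72 genes there were 2 or 3 strong sites, 149 in all, and 133 of the 675 sites overlapped another, so these are not independent. At 52 of the 72 genes, every site lay on the same side of 0, and the median gap between the highest and lowest log2 fold change of a gene was 0.25 in the authors' deposited table. Over all 675 sites 75.1% lay above 0, so many pairs would share a side in any case. At 16 genes every site rose, and at 3 every site fell. Those 3, named after their values were seen, were Kcnt2 (-2.26 and -2.21), Sft2d2 (-1.47 and -1.20) and Syt14 (-1.12 and -0.78), in the authors' deposited table. The widest gap was at Pym1, with -2.51 and 0.08 in the authors' deposited table. Soga3 was the 1 gene with both a fall (-0.88) and a rise (0.71), in the authors' deposited table.

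Sites shared by 2 or 3 gene ends were kept at 60 of 99 (60.6%), rose at 30 and fell at 4, in the authors' deposited table. At the 12 sites of 3′ ends, 2 rose, 3 fell and 6 were kept in the authors' deposited table. Of all 675 sites 53.5% were kept, 33.5% rose and 6.81% fell, and no difference from these shares was tested. Shares at short and long distance from the gene end were alike. Of the 364 sites within 100 bp 125 rose (34.3%), 21 fell and 200 were kept (54.9%), and of the 71 sites from 500 to 1000 bp 22 rose (31.0%), 4 fell and 39 were kept (54.9%), per the authors' deposited table.

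The same genes also had listed sites away from their ends. Within 1 to 50 kb of a gene end, 436 of the 598 genes had 1426 further listed sites, of which 295 rose (20.7%), 518 fell (36.3%) and 5.61% were kept in the authors' deposited table. Over all 4654 listed sites at this distance 21.6% rose, 35.6% fell and 5.61% were kept, so these shares are near the background. The further sites had a median signal of 5.46, against 34.9 at the gene ends, and the kept rule moves with signal. Genes whose strong gene-end site was kept had 745 such sites, of which 19.7% rose and 38.1% fell. A site near a gene need not act on it.

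Some of these further sites were themselves strong. Near genes with a kept gene-end site there were 55 further sites with a mean signal of 20 or more, of which 17 rose (30.9%) and 13 fell (23.6%). Over all 304 such sites within 1 to 50 kb of any gene end 40.1% rose and 27.3% fell. Nek2, a centrosomal kinase, had 7.15 ± 1.13 at a site 12441 bp away and 0.24 ± 0.23 at its end, in the authors' deposited table. Eea1, a tether of early endosomes, had -6.07 ± 1.13 at a site 48256 bp away and 0.12 ± 0.22 at its end, in the authors' deposited table. Plxna2, a semaphorin receptor, had 5.66 ± 0.98 at 9642 bp and -0.03 ± 0.28 at its end, per the authors' deposited table. These 3 were chosen after their values were seen. The 3 further sites had mean signals of 26.4, 21.5 and 24.3, so with such changes they passed the signal bound through 1 cell type. They had to differ to count as strong, and their values are given as a description. The signal bound can act in the same way on the other strong further sites counted here.

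Sites at the bounds of the set had mixed outcomes. Just above the signal bound lay Hes6 (20.01, log2 fold change 1.53), Slc19a1 (20.05, -0.23) and Ewsr1 (20.11, 1.08), and just below it Slco5a1 (19.98, 1.14), Map3k5 (19.97, 0.42) and Ascc1 (19.93, -0.56), in the authors' deposited table. Just within the distance bound lay Ralgps2 (983 bp, -1.34), Bivm (980 bp, 0.62) and Prdm1 (961 bp, -0.07), in the authors' deposited table. Just beyond it lay Coq10a (1021 bp, 1.64), Hnrnpu (1031 bp, 0.54) and B3gat2 (1034 bp, 0.20), in the authors' deposited table.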

How the data were processed

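ATAC-seq libraries of 3 ESC and 3 NPC samples entered a comparison that the authors ran themselves, and only its table was used. Per the submitters' processing notes, the authors used the mm10 build, BWA 2.1, Picard 2.23.8, MACS2 2.2.7, SAMtools 1.9 and DESeq2, with no role stated; for the DESeq2 version, the model, any Tn5 shift and the choice of SP1 sites, details were not given in the sources used here. Per the file headers, the deposited signal is the mean normalized count, the deposited log2 fold change has a standard error on the log2 scale, and the deposited p-value has an adjusted form. The direction, NPC over ESC, was taken from the deposited table's name. Each site is 500 bp wide, and the table does not say whether coordinates count from 0 or 1. Depth per library is unknown. P-values recomputed from fold change over error were at least as large as the deposited ones at all 675 sites (median ratio 1.47), so fold changes may have been shrunk by the authors, which no source states.

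Sites were joined to the nearest end of RefSeq protein-coding genes (assembly GRCm38.p6) with Python 3.11.15, pandas 2.3.3, numpy 2.4.6 and scipy 1.17.1, and the counting was tested on simulated data. Strand and promoter sequence came from the RefSeq promoter table. Named sites were the 10 of highest signal, the 10 largest called rises and falls with 1 per gene, the 5 narrowest kept intervals, up to 4 of highest signal per list, the called sites of the cell type lists, of which 1 is not reported here, and the 3 sites either side of each threshold. Members and lists were chosen with earlier results of these data known. Alternatives changed the distance, signal, p-value and fold thresholds, the centring, and the sites counted; the last included an added one, made after seeing the data, of sites within 1000 bp of a RefSeq start.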

Additional observations from a re-analysis of the deposited data

How the results depend on the processing

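Of 56 recomputed values 34 stayed close to the reported ones. These covered distances of 500 and 2000 bp, 1 site per gene or overlap group, each chromosome left out (except the median without chromosome 1, which was 0.37), all RefSeq genes, and sites within 1000 bp of a RefSeq start, chosen after seeing the data. With a signal bound of 10, 28.4% rose, 9.72% fell and 42.9% were kept. With 40, 42.0% rose, 3.50% fell and 61.5% were kept, with a median of 0.38. At an adjusted p below 0.01, 21.9% rose and 5.04% fell. With a change of at least 2-fold, 11.1% rose and 3.85% fell. With recomputed p-values 27.7% rose. Centred on the median of all listed sites, 48.6% rose, 3.56% fell and 34.8% were kept, with a median of 0.60. Centred on their own median, 11.3% rose, 11.4% fell and 62.1% were kept, with a median of 0. By the point fold change alone 84.9% lay within 2-fold. Other bounds on signal, p-value or fold, and the point rule, change which sites count by construction. The centred values also use recomputed p-values, and for these, for recomputed p-values alone and for chromosome 1 the cause was not tested. No paired analysis was possible because the table holds the authors' comparison and no column per library, which also leaves the library depth unknown and no replicate to leave out.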
